A study of Mus musculus with 90 samples.

Results

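Megakaryocyte-like cells grown from Runx1-knockout stem cells differed widely in their platelet transcripts, high in some cells and low in others. The cells were 6 of the 9 knockout MK cells (KO MK) in a table of 46 single-cell libraries. Those 6 had less than 50% of their TPM (a unit of transcript level corrected for gene length and for library total) on mitochondrial genes. The 4 with at least 1000 TPM of Pf4, called Pf4-high, were KO MK 1, 1A, 1B and B1-3, and the 2 below that level, called Pf4-low, were KO MK 2 and B1-4. The sets were chosen by their measured Pf4 level, with 13752 TPM in the lowest Pf4-high cell and 214 TPM in the highest Pf4-low cell. The difference between the sets is therefore a description, with no test, and so is that of every gene measured in the same cells. All 4 Pf4-high cells carried the markers that fit the MK label, Pf4, Ppbp, Gata1 and Itga2b. In both Pf4-low cells Ppbp and Itga2b, like the Pf4 that chose them, lay inside the range of knockout cells labelled non-MK. For Ppbp the top of that range, 133 TPM, came from a single cell, and all other non-MK cells compared held 1.1 TPM or less. KO MK 2, at 63.2 TPM of Ppbp, was above all but that cell. Gata1 lay inside that range in B1-4 and above it in KO MK 2, at 5.7 TPM. The markers thus do not bear out the MK label evenly in the Pf4-low cells, and these are called by their Pf4 level only.

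The cells descend from CD41-positive hematopoietic stem cells of mouse bone marrow, with or without the transcription factor RUNX1. Knockout mice carried MxCre1+/- with RUNX1f/f, and wild-type controls carried the same floxed alleles without the Cre (MxCre1-/-,RUNX1f/f). All received 4 poly(I:C) injections, which induce the Cre, and the sorted stem cells were taken 4 weeks later and cultured for 2 days. Megakaryocyte-like (MK) and other (NMK) cells were then picked one by one and sequenced with SMART-Seq, which reads whole transcripts. Mx1-Cre is driven by an interferon-responsive promoter, is not restricted to one blood lineage and need not recombine every cell. The knockout MK cells were set against 12 of the 16 knockout NMK cells (KO NMK), those with less than 50% mitochondrial TPM and a mean log2(TPM + 1) of housekeeping genes of 6 or more. The labels tie no cell to a mouse or a dish, so each set is treated as 1 sample and no p-value is given.

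Megakaryocytes are the marrow cells that make platelets. As they mature they fill alpha granules with chemokines and adhesive proteins, place the receptors for von Willebrand factor, fibrinogen, collagen and thrombin on their membranes, and reorganise tubulin and actin to extend proplatelets. GATA1 and its cofactor FOG1 drive this program together with FLI1, NFE2 and RUNX1, while MYB and the stem cell antigens recede.

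Runx1 itself (chromosome 16, 92601466 to 92826149, minus strand, GRCm38) was present in both sets. It stood at 24.7, 12.6, 31.8 and 47.5 TPM in KO MK 1, 1A, 1B and B1-3, the order in which Pf4-high values are given throughout. It stood at 8.9 and 11.9 TPM in KO MK 2 and B1-4, the order used for Pf4-low values. KO NMK cells held 0 to 41.5 TPM (median 9.55). All 4 Pf4-high cells were above both Pf4-low cells, and both of those lay inside the KO NMK range. TPM covers all exons together, the floxed ones included, and so these values check neither the deletion nor the label of any cell. Of the relatives, Runx3 was 0, 0.5, 7.2 and 15.3 TPM against 22.8 and 10.7 TPM, and its ranges overlapped. Runx2 was at or below 0.5 TPM in every Pf4-high cell and at 0.6 and 4.3 TPM in the Pf4-low cells. Cbfb, the partner subunit of RUNX proteins, was 4.7, 10.4, 31.6 and 43.1 TPM against 25.6 and 63.8 TPM and also overlapped.

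Libraries differed in ways that run alongside the sets. Genes above 0 numbered 8205 in KO MK 1 and 12428 to 14487 in the other Pf4-high cells, against 11896 and 12215 in the Pf4-low cells and 6443 to 10987 in KO NMK cells. Mitochondrial genes held 3.73 to 6.15% of TPM in Pf4-high, 8.67 to 10.02% in Pf4-low and 5.38 to 8.23% in KO NMK cells. Ribosomal protein genes held 3.66 to 8.15%, 10.6 to 10.8% and 7.43 to 11.95% in the same order. The part of these differences in the gene values was not tested, and TPM keeps no record of depth. KO MK 1 stood apart, left out by the authors from their table without outliers, with 22.5% of its TPM on 10 genes. It correlated at 0.65 to 0.71 with the other Pf4-high cells over 12745 genes, while those 3 correlated at 0.89 to 0.91 with each other. Leading counts are given with and without KO MK 1. Of the KO NMK cells compared, the authors also left out B1-1a. They kept KO NMK B1-1b and B1-2a, which are not compared here.

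A gene was called higher or lower when every cell of one set lay beyond every cell of the other and the mean log2(TPM + 1) differed by 1 or more. Of 11761 genes whose mean reached 1 TPM in one of the sets, 892 (7.58%) were higher in Pf4-high than in Pf4-low cells and 1333 (11.3%) were lower, around a median difference of -0.20. Without KO MK 1 the counts were 2008 (16.9%) and 1298 (10.9%) of 11865 genes, and the median was 0.18. The split between higher and lower calls thus turned with that library, from 40.1% higher to 60.7% higher. Of the 892 higher genes, 840 were also called without it, and of the 1333 lower genes, 1156. The shares of all genes, 7.58% and 11.3%, or 16.9% and 10.9% without KO MK 1, are the background for the list counts below. Leaving out KO MK 2 or B1-4 also raised the counts, to 1235 higher and 3593 lower without KO MK 2 and to 1668 and 2231 without B1-4, since a lone cell clears a range more easily. Differences are on the log2(TPM + 1) scale, which understates changes of low genes. None is given for a gene listed at 0 in a whole set, and in the list medians the pseudocount of 1 sets the size for such genes.

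**Figure D1:**
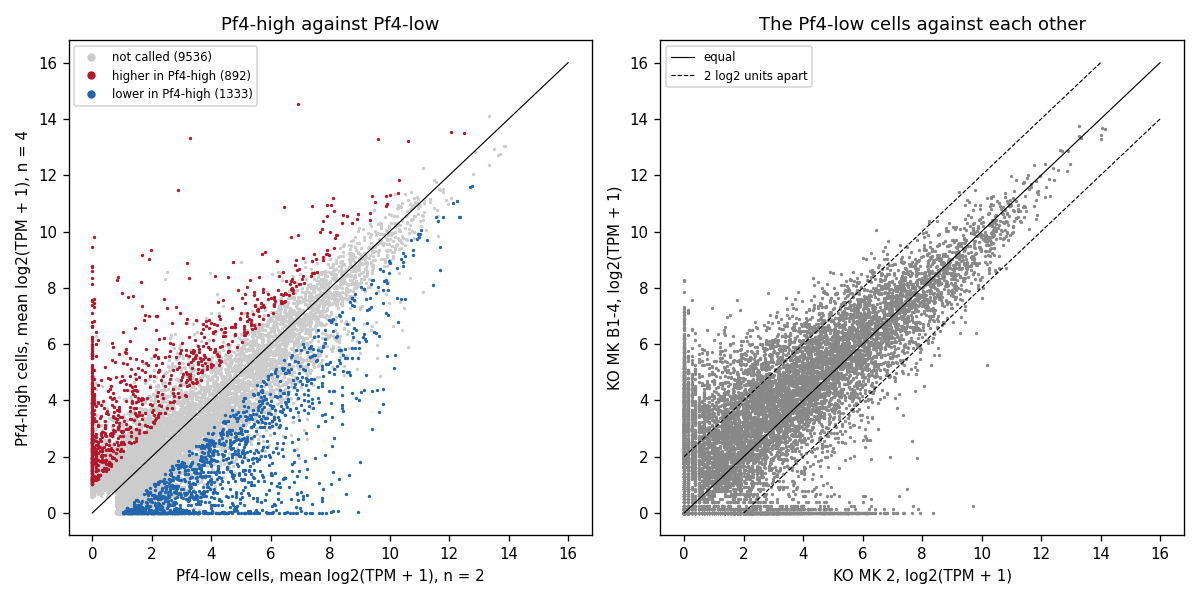
Left, mean log2(TPM + 1) of the 4 Pf4-high cells against that of the 2 Pf4-low cells for 11761 genes, with 892 called higher in red and 1333 called lower in blue. Right, KO MK B1-4 against KO MK 2 for the same genes, with dashed lines 2 log2 units from equality, beyond which 3136 genes lay.

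Alpha-granule cargo genes were on the Pf4-high side. Of 18 measured cargo genes, 10 were higher in Pf4-high cells and 0 were lower, where 7.58% and 11.3% of all genes tested were. The median difference was 3.85, against -0.20 over all genes. Pf4 is among the 10, and its separation was fixed by the choice of the sets. Without KO MK 1, 14 of 18 were higher. Pf4 (chromosome 5, 90772435 to 90773383, plus strand), which encodes platelet factor 4, was 43254, 18922, 26885 and 13752 TPM against 214 and 65.8 TPM. KO NMK cells held 3.4 to 587 TPM (median 124), so both Pf4-low cells lay inside that range. Ppbp (chromosome 5, 90768518 to 90770063, plus strand), the precursor of a platelet chemokine, was 15643, 12777.5, 23854 and 2219 TPM against 63.2 and 0.5 TPM, with 0 to 133 TPM (median 0.35) in KO NMK cells. Among the Pf4-high cells the lowest Ppbp was in B1-3, and among the Pf4-low cells KO MK 2 alone held more than 1 TPM. The third chemokine gene of this stretch of chromosome 5, Cxcl5 (chromosome 5, 90759360 to 90761624, plus strand), was 1214, 223, 374 and 211 TPM and was listed at 0 in both Pf4-low cells.

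Thbs1 (chromosome 2, 118111876 to 118127133, plus strand), which encodes the adhesive protein thrombospondin 1, was 587, 314, 888 and 234 TPM. It was listed at 0 in both Pf4-low cells and in all 12 KO NMK cells. Vwf, for von Willebrand factor, was 33.4, 16.9, 36.2 and 15.4 TPM, and Pdgfb, for a platelet growth factor, 3.8, 18.1, 5.6 and 6.3 TPM, with both listed at 0 in both Pf4-low cells. Clu, for clusterin, was 489.7, 467, 1043.5 and 459.5 TPM against 9.2 and 0 TPM, and coagulation factor V (F5) was 20.7, 74.8, 129.7 and 56.4 TPM against 1.6 and 0 TPM. F13a1, for a factor XIII subunit, varied widely inside the Pf4-high set at 29.6, 6.6, 349.5 and 3 TPM. Not all cargo separated the sets. Selp, for P-selectin, was 0, 227, 374 and 133 TPM against 0.3 and 33.1 TPM, where the absence from KO MK 1 breaks the separation. Timp3, a metalloprotease inhibitor, showed the same gap at 0, 169, 259.9 and 835 TPM. Srgn, for the granule proteoglycan serglycin, was 1806, 319, 449 and 277 TPM against 359 and 434.5 TPM, and KO NMK cells held 181 to 442 TPM, so it was abundant in every set.

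The summed TPM of all cargo genes was 63331, 33693, 55259 and 19099 in the Pf4-high cells. It was 713 and 719.5 in the Pf4-low cells, inside the 384 to 984 of KO NMK cells. Pf4, which chose the sets, and Ppbp made up most of the sum in each Pf4-high cell.

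Surface receptors separated the sets as plainly. Of 24 measured, 19 were higher in Pf4-high cells and 0 lower, with a median difference of 3.52, and 21 of 24 were higher without KO MK 1. Itga2b (chromosome 11, 102453297 to 102470122, minus strand), which encodes CD41, the alpha subunit of the fibrinogen receptor, was 558, 168, 263 and 318 TPM against 7.8 and 0.1 TPM. CD41 was the antigen of the sort, and KO NMK cells held 0 to 68.1 TPM (median 18.2), so both Pf4-low cells were below the KO NMK median. Its partner Itgb3 was 321, 179, 331 and 131 TPM against 2.9 and 0 TPM. All 4 genes of the receptor for von Willebrand factor were higher. Gp1bb (chromosome 16, 18620317 to 18622403, minus strand) was 227, 349.5, 574 and 253 TPM and listed at 0 in both Pf4-low cells. Gp1ba was 115, 22, 233 and 37.2 TPM against 0.3 and 0 TPM. Gp5 was 718, 339.8, 957.5 and 759 TPM against 13.1 and 0.1 TPM, and Gp9 was 275, 164.5, 206 and 73.3 TPM against 0.9 and 4.4 TPM.

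Clec1b (chromosome 6, 129397297 to 129409335, plus strand), for the podoplanin receptor CLEC-2, was 3943, 642, 849 and 111 TPM, listed at 0 in both Pf4-low cells and at or below 0.2 TPM in KO NMK cells. Its range inside the Pf4-high set was wide, with KO MK 1 highest and B1-3 lowest. The collagen receptor gene Gp6 was 46.7, 25.2, 59.2 and 8.3 TPM and listed at 0 in both Pf4-low cells. Treml1, a receptor-like protein of platelet alpha granules, was 729.7, 407, 741 and 322 TPM against 11.9 and 0.1 TPM. The purinergic receptor gene P2ry1 was 132, 124, 214 and 167.5 TPM against 2.2 and 9.1 TPM.

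Some receptor genes stayed on in the Pf4-low cells. Fcer1g, the signalling chain paired with GPVI and with Fc receptors, was 12949.5, 4215, 4151 and 2574 TPM against 2898 and 1692 TPM, so KO MK 2 lay above Pf4-high cell B1-3 and the sets overlapped. Both Pf4-low cells lay above every KO NMK cell (0 to 1054 TPM), a difference of 5.18 from the KO NMK mean. The tetraspanin gene Cd9 was 23106, 6252, 9799 and 5634 TPM against 2148 and 1155 TPM, with 1 to 1623 TPM in KO NMK cells. The thrombin receptor gene F2r was 2345, 1011, 1642 and 1546 TPM against 265 and 898 TPM, and F2rl2, for another protease-activated receptor, was 1269.8, 1959, 2287 and 2316.5 TPM against 79.7 and 346 TPM. For F2r, F2rl2 and Cd9 the sets did not overlap, but the Pf4-low cells held 79.7 TPM or more of each. KO NMK cells held these transcripts too, with 110.6 to 814.6 TPM of F2r (median 398.7) and 0 to 210.6 TPM of F2rl2 (median 92.9). For F2r and F2rl2, KO MK 2 lay below the KO NMK median and B1-4 above the KO NMK maximum.

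**Figure D2:**
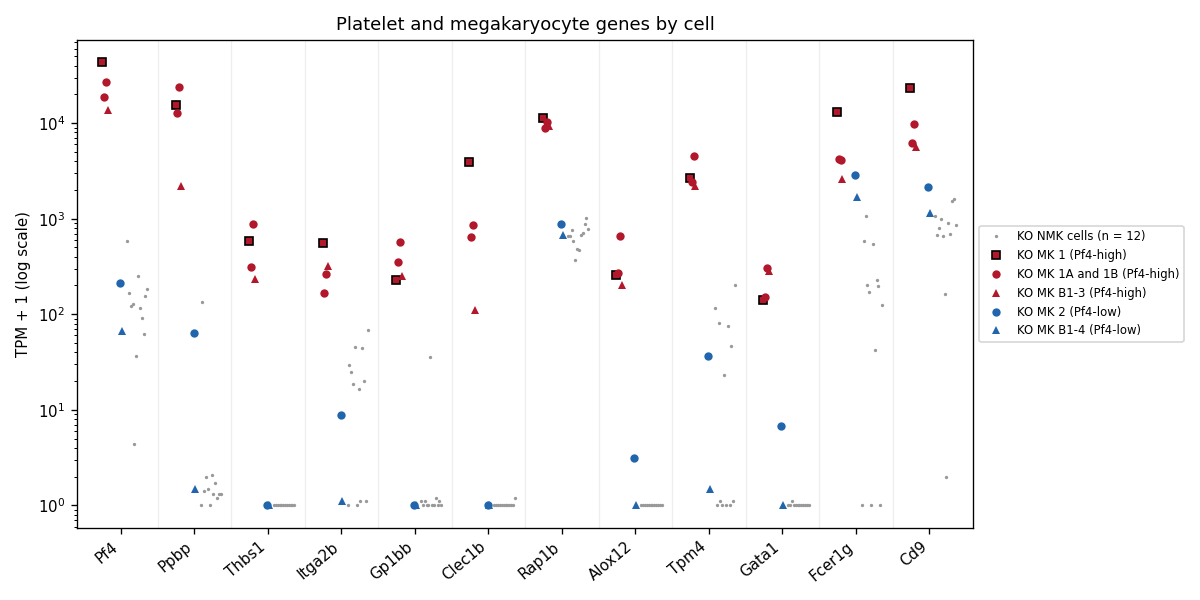
TPM + 1 on a log axis for 12 platelet and megakaryocyte genes in each Pf4-high (red), Pf4-low (blue) and KO NMK (grey) cell. Thbs1, Gp1bb and Clec1b were listed at 0 in both Pf4-low cells, while Fcer1g and Cd9 remained above 1000 TPM there.

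The promoters of 4 genes from among those with the largest differences are shown, so that their letters can be set beside the shared pattern, as RefSeq gives them for GRCm38.p6, from 250 bases before to 50 after the gene start, 5′ to 3′ on the gene's strand. Capitals mark matches, on either strand, to GATAA (the core bound by GATA factors), TGTGGT (RUNX factors) and AGGAAG (a core bound by ETS factors such as FLI1), and no matches overlap in these windows. They are Pf4 at chr5:90772185-90772484 (plus strand), Ppbp at chr5:90768268-90768567 (plus strand), Clec1b at chr6:129397047-129397346 (plus strand) and Gp1bb at chr16:18622354-18622653 (minus strand).
Pf4: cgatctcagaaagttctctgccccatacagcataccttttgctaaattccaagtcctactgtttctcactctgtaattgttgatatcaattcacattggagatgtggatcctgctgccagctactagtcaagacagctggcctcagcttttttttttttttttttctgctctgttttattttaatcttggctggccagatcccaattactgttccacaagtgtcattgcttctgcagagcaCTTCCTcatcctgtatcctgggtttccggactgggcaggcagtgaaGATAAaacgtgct
Ppbp: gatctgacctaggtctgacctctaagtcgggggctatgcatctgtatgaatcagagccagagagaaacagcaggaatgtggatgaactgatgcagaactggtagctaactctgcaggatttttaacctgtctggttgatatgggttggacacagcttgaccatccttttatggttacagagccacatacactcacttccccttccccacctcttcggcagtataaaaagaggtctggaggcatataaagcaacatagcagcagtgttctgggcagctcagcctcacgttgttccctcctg
Clec1b: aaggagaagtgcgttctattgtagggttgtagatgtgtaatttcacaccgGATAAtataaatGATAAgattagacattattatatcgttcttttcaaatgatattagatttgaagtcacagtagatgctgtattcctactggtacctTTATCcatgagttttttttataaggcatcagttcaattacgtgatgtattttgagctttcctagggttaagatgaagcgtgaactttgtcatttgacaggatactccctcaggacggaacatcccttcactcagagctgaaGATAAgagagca
Gp1bb: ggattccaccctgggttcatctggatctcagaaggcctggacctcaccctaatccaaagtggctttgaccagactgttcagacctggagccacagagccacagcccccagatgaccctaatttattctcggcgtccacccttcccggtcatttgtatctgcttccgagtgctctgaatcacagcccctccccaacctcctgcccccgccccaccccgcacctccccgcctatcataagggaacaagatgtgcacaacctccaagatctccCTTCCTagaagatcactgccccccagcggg

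The Pf4 window held 1 GATAA and 1 AGGAAG match, the Clec1b window 4 GATAA matches, the Gp1bb window 1 AGGAAG match and the Ppbp window none of the 3. GATAA was in 25.4% of all 32851 promoter windows and in 17.7% of the 10440 windows of tested genes. It was in 14.9% of the 871 windows of genes higher in Pf4-high cells and in 19.8% of the 1146 windows of lower genes. TGTGGT was in 16.8% of all windows, 12.98% of those of tested genes, 11.6% of those of higher and 15.4% of those of lower genes. AGGAAG was in 35.4%, 34.6%, 34.6% and 39.9% in the same order. These shares describe letters in a short window and say nothing of binding.

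Signalling and eicosanoid enzymes followed the receptors in part. Of 24 measured, 16 were higher in Pf4-high cells and 0 lower, with a median difference of 1.91. Rap1b, the small GTPase that switches on the platelet integrin, was 11397, 8912, 10331 and 9388 TPM against 880.5 and 676 TPM, and KO NMK cells held 367.5 to 1026 TPM. The Pf4-high values lay close together, and both Pf4-low cells lay inside the KO NMK range. Its exchange factor gene Rasgrp2 was 22.1, 21.6, 43.5 and 10.3 TPM against 1 and 0.2 TPM. Alox12, for platelet 12-lipoxygenase, was 257, 269.9, 653 and 201 TPM against 2.1 and 0 TPM, and was listed at 0 in all KO NMK cells. Tbxas1, for thromboxane synthase, was 51.3, 36, 114 and 40.1 TPM against 4.7 and 18.4 TPM, and Ptgs1, for cyclooxygenase 1, was 41.7, 17.5, 36 and 24 TPM against 9.9 and 7.9 TPM. The adaptor gene Lat was 238.5, 382, 394 and 367 TPM against 9.8 and 26.9 TPM.

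The leukotriene enzymes did not follow. Alox5, for 5-lipoxygenase, was 0, 161, 254 and 100.1 TPM against 11.8 and 104.5 TPM, and KO NMK cells held at most 0.1 TPM. Both Pf4-low cells were thus above every KO NMK cell, and B1-4 was level with Pf4-high cell B1-3. Alox5ap, its activating protein, was 1927, 402, 381 and 162 TPM against 791 and 450.4 TPM. Lcp2 and Plcg2, signalling proteins shared with other blood cells, overlapped between the sets.

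In the proplatelet cytoskeleton, 13 of 22 measured genes were higher in Pf4-high cells and 0 lower, with a median difference of 1.35. Tpm4, a tropomyosin, was 2689, 2429, 4515 and 2181 TPM against 35.6 and 0.5 TPM, and KO NMK cells held 0 to 199.9 TPM (median 11.1). The tubulin gene Tubb2a was 373, 126, 162.5 and 150 TPM and listed at 0 in both Pf4-low cells. Tubb1, the tubulin of the platelet marginal band, was 131, 5.8, 5.1 and 7.6 TPM against 0 and 0.1 TPM, with KO MK 1 far above the other Pf4-high cells. Vcl, for vinculin, was 73.2, 78.5, 103 and 86 TPM against 21.4 and 21.1 TPM. General actin regulators differed less, as Pfn1, for profilin, at 11122, 13470.4, 13669 and 9263.5 TPM against 7504 and 4511 TPM, and Tuba8, Myl6 and Tagln2 did not separate the sets.

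Of 26 granule biogenesis genes, 8 were higher in Pf4-high cells and 3 lower, with a median difference of 0.39. Over all genes tested 7.58% were higher and 11.3% lower, so only the higher count stood above the overall share. Slc35d3, needed for dense granules, was 5.1, 182.5, 147 and 343 TPM against 0 and 0.2 TPM. Rab27b, a GTPase of granule secretion, was 142.5, 105, 155 and 147 TPM against 10.5 and 4.2 TPM. Sdpr, a caveolar coat protein for which no position was matched, was 756, 1018, 1225 and 660.1 TPM against 0 and 0.1 TPM. Rab38, Dtnbp1 and Nbeal2 were lower in Pf4-high cells. Rab38, of lysosome-related organelles, was 33, 183, 44 and 300.2 TPM against 360.1 and 538 TPM, and Nbeal2, the gene of gray platelet syndrome, was 0, 2.8, 4.1 and 6 TPM against 6.2 and 13.2 TPM.

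Transcription factors differed in both directions. Of 24 measured, 8 were higher in Pf4-high cells and 5 lower, where 7.58% and 11.3% of all genes tested were. The median difference was just above 1. Without KO MK 1, 12 were higher, where 16.9% of all genes were. Gata1 (chromosome X, 7959260 to 7978071, minus strand), the master factor of megakaryocytes and red cells, was 138.5, 152, 302 and 285 TPM against 5.7 and 0 TPM, and at most 0.1 TPM in KO NMK cells. KO MK 2 therefore held a trace above KO NMK cells and B1-4 none. Zfpm1, for FOG1, was 13.1, 11.6, 11.5 and 12.6 TPM against 1.6 and 1.7 TPM, and Fli1 was 85.6, 61.6, 141 and 109.8 TPM against 6.8 and 60.1 TPM. Tal1, Mafg, Ets1 and Runx1 were also higher. The 5 lower members were Myb, Hhex, Gata2, Erg and Runx2. Runx2 was near 0, with at most 0.5 TPM in Pf4-high cells against 0.6 TPM in KO MK 2 and 4.3 TPM in B1-4. Myb, a factor of progenitor growth, was 0.1, 0, 0 and 6.5 TPM against 65.6 and 247 TPM, with 2.9 to 453 TPM (median 125) in KO NMK cells. Hhex was 80.6, 99.3, 172 and 47.2 TPM against 305 and 696 TPM, and Gata2, which precedes Gata1 in this lineage, was 5.6, 2.8, 8.7 and 9.5 TPM against 14.9 and 22.8 TPM. Nfe2, Gfi1b and Lmo2 overlapped, with Nfe2 at 221, 70.1, 91.6 and 124 TPM against 45.2 and 92.7 TPM.

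**Figure D3:**
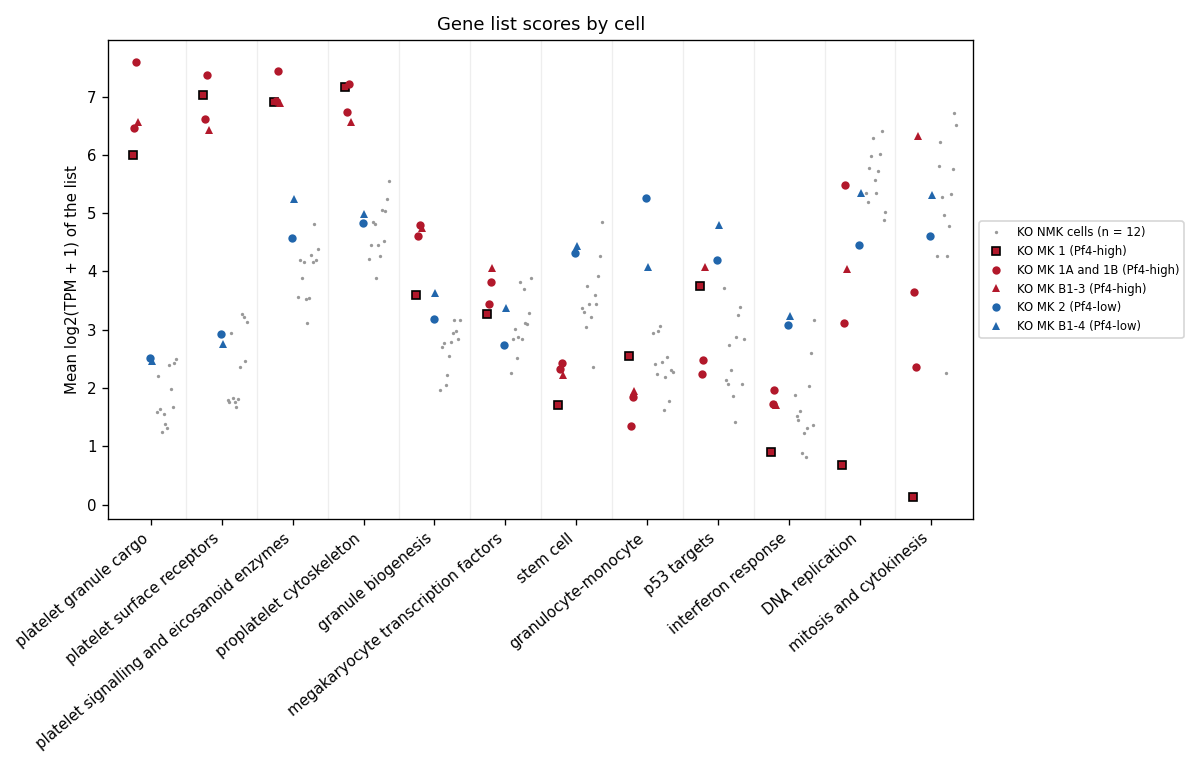
Mean log2(TPM + 1) over each of 12 gene lists in each Pf4-high (red), Pf4-low (blue) and KO NMK (grey) cell. Pf4-high cells stand above both other sets for the first 4 lists, and KO MK 1 stands near 0 for DNA replication and mitosis.

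Stem cell genes ran the other way. Of 25 measured, 12 were lower in Pf4-high cells and 1 was higher, with a median difference of -3.06, and the counts without KO MK 1 were 13 and 2. Ly6a (chromosome 15, 74994877 to 74998031, minus strand), which encodes Sca-1, was 0, 0, 0.1 and 0 TPM against 342 and 199 TPM, and KO NMK cells held 66.3 to 359 TPM. Kit, the stem cell factor receptor, and Procr, the stem cell marker EPCR, were listed at 0 in all 4 Pf4-high cells. Kit was 21 and 54 TPM and Procr 50.3 and 116 TPM in the Pf4-low cells, inside the KO NMK ranges of 0 to 63.9 TPM and 0 to 368 TPM. Hoxa9 was 0, 0.1, 0 and 0 TPM against 24.8 and 15.5 TPM. Cd34 was 4.2, 234, 353 and 123.5 TPM against 450 and 1129 TPM, so its transcripts persisted in 3 Pf4-high cells. The exception was Slamf1, for the stem cell and megakaryocyte antigen CD150, at 76.9, 47.2, 309.8 and 133.5 TPM against 5.9 and 27.9 TPM, with 0 to 23.6 TPM in KO NMK cells. Ifitm1 was 2, 17.3, 12.2 and 63.3 TPM against 1807 and 416 TPM, and its value in KO MK 2 exceeded the KO NMK maximum of 517 TPM.

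Myeloid genes were also on the Pf4-low side. Of 13 measured granulocyte-monocyte genes, 5 were lower in Pf4-high cells and 0 higher, where 11.3% and 7.58% of all genes tested were. The list's median difference was -1.53. Tyrobp (chromosome 7, 30413760 to 30417585, plus strand), the signalling adaptor of myeloid and natural killer cells, was 0, 0, 0 and 0.1 TPM against 530.4 and 449 TPM. KO NMK cells held 0 to 272 TPM (median 0), all below both Pf4-low cells. Fcgr3, an Fc gamma receptor, was 0.9, 0, 1.7 and 1.5 TPM against 123 and 50.8 TPM, with at most 1.1 TPM in KO NMK cells. Prtn3, for proteinase 3, was 0, 0, 3.1 and 0 TPM against 62.1 and 91.2 TPM, with 0 to 54.9 TPM in KO NMK cells. These 3 were above every KO NMK cell in both Pf4-low cells. Spi1, for the myeloid factor PU.1, was 5.5, 0, 0 and 1.9 TPM against 42.4 and 137 TPM, and KO NMK cells reached 122 TPM. Lyz2, for lysozyme, overlapped at 4676, 272, 734 and 370.1 TPM against 1992 and 944.5 TPM.

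The myeloid set was partial. In both Pf4-low cells 10 of the 30 granulocyte-monocyte genes were at 0, among them Mpo, Elane, Ctsg and S100a8, which define granulocyte precursors. Csf1r, the monocyte growth factor receptor, was 2.7 and 0 TPM. The list's summed TPM was 2995 and 1783 in the Pf4-low cells, 314 to 4868 in Pf4-high cells, where Lyz2 made up most of it, and 359.5 to 1489 in KO NMK cells. Of mast cell and basophil genes, 2 of 3 measured were lower in Pf4-high cells, and 11 of 15 were at 0 in both Pf4-low cells, among them Ms4a2 and Mcpt8. Of lymphoid genes, 3 of 4 measured were lower and 17 of 25 were at 0 in both Pf4-low cells, with Cd3e and Pax5 among these. Nkg7, of cytotoxic granules, was 0, 0, 0 and 2.3 TPM against 1173 and 37 TPM, with KO MK 2 far above B1-4. Of dendritic cell genes, 3 of 6 measured were lower in Pf4-high cells, the class II genes H2-Aa, H2-Ab1 and H2-Eb1, with H2-Aa at 114 and 37.3 TPM in the Pf4-low cells but Cd74 and Siglech at 0 there. The part of any admixed cell in these values was not tested. Over all genes tested 11.3% were lower in Pf4-high cells, and the mast cell, lymphoid and dendritic lists hold few measured genes.

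**Figure D4:**
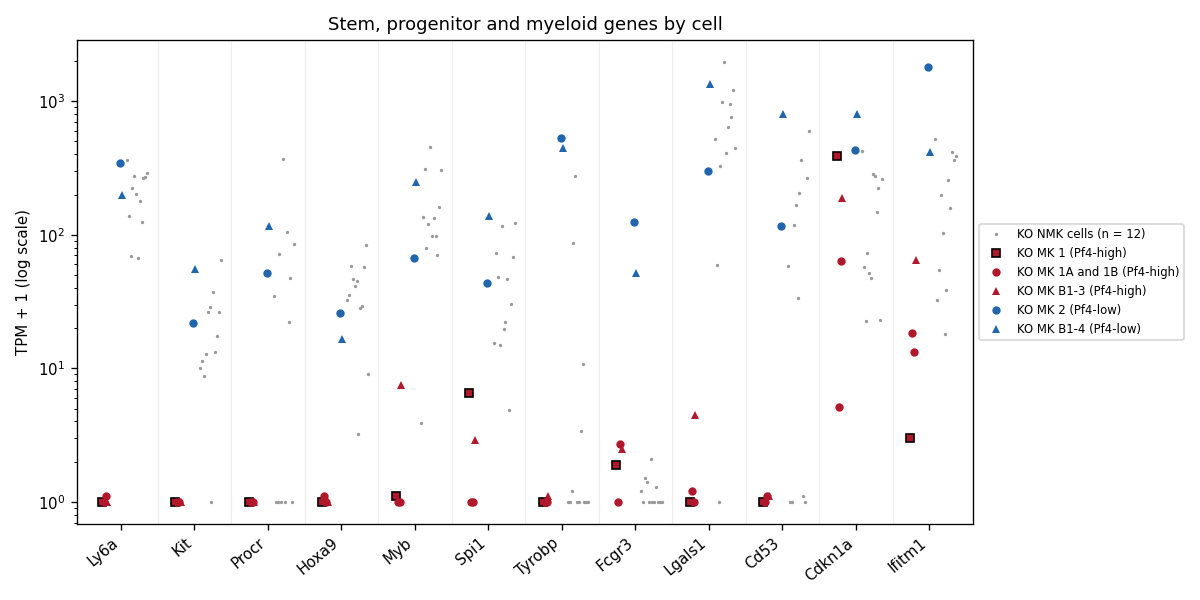
TPM + 1 on a log axis for 12 stem, progenitor, myeloid and response genes in each Pf4-high (red), Pf4-low (blue) and KO NMK (grey) cell. Ly6a, Kit and Procr lie at or near 0 in all Pf4-high cells and inside the KO NMK range in both Pf4-low cells, while Tyrobp and Fcgr3 lie above that range.

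The other genes with the largest deficits in Pf4-high cells were of mixed kinds. Lgals1, for galectin 1, was 0, 0.2, 0 and 3.5 TPM against 302 and 1342 TPM. Cd53, a leukocyte tetraspanin, was 0, 0, 0.1 and 0.1 TPM against 115 and 801 TPM, and the adhesion receptor gene Adgrl4 was 0, 0, 0 and 5.3 TPM against 247 and 545 TPM. Fbp1, for the gluconeogenic enzyme fructose bisphosphatase, Ms4a6d, Gpr65 and Pglyrp1 were listed at 0 in all 4 Pf4-high cells and stood at 104.5 to 296 TPM in the Pf4-low cells. Cfp, for properdin, was 30.9, 0, 0 and 0.3 TPM against 325 and 484 TPM, and Rgs2, a regulator of G protein signalling, was 0, 3.5, 0 and 0 TPM against 194 and 232 TPM. On the other side Serpinb2, a protease inhibitor, at 366, 396, 665 and 351 TPM, and Tesc, a calcium-binding protein, at 685, 76.6, 283 and 81.5 TPM, were listed at 0 in both Pf4-low cells. Tmem158 was 892, 235, 416 and 142 TPM against 2 and 0.1 TPM.

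Most erythroid genes were not called, as was so of all genes. Of 13 measured, 2 were higher in Pf4-high cells and 1 lower, against 7.58% and 11.3% of all genes tested. The median difference was 1.68, and 12 of the 13 differences were above 0, against 44.3% of all genes tested. Without KO MK 1, 4 of 11 were higher and 1 lower. The list's mean log2(TPM + 1) was 3.96, 4.07, 4.55 and 3.73 in Pf4-high and 3.21 and 1.89 in Pf4-low cells, against 1.57 to 4.16 in KO NMK cells. Epor, the erythropoietin receptor, was 7.2, 18.7, 19.4 and 22.8 TPM against 0.1 and 0 TPM, while Car2, a carbonic anhydrase, was 0.2, 250.4, 96 and 198 TPM against 1316.5 and 1013 TPM. The globin genes Hbb-bt and Hbb-bs overlapped between the sets. Hbb-bt was 26288, 43.5, 1302 and 34.6 TPM against 833 and 0.2 TPM, with 0 to 1450 TPM in KO NMK cells. Klf1, the red cell factor, was at 0 in both Pf4-low cells. KO MK 1 held the most Hbb-bt of these cells, and the source of its globin transcripts was not tested.

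Proliferation genes varied from cell to cell inside the Pf4-high set. The mean log2(TPM + 1) of DNA replication genes was 0.68, 3.12, 5.49 and 4.03 in Pf4-high, 4.46 and 5.34 in Pf4-low and 4.88 to 6.41 in KO NMK cells. For mitosis genes it was 0.12, 3.64, 2.36 and 6.33, 4.60 and 5.32 and 2.26 to 6.72. KO MK 1 was near 0 in both, 1B was high for replication and B1-3 for mitosis, so the set had no common state. Of 29 replication genes 6 were lower in Pf4-high cells, where 11.3% of all genes tested were, and of 27 mitosis genes 0 were called. Ccnb1, the mitotic cyclin, was 0, 245, 54 and 1677 TPM against 216 and 417 TPM, and Rrm2, for ribonucleotide reductase, was 0, 60.2, 1029 and 84.6 TPM against 305.5 and 439 TPM. Both Pf4-low cells thus held cycling transcripts inside the range of the Pf4-high cells.

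Stress and interferon genes leaned to the Pf4-low side. The counts below stand beside 11.3% lower and 7.58% higher over all genes tested. Of 16 p53 target genes 4 were lower in Pf4-high cells and 0 higher. Cdkn1a, for the cell cycle inhibitor p21, was 389.5, 4.1, 62.4 and 187 TPM against 434 and 806 TPM, and Gdf15, a stress cytokine, was 0, 0, 0 and 5 TPM against 60.1 and 356 TPM. Of 19 interferon genes 9 were lower in Pf4-high cells and 0 higher, as in the count without KO MK 1. Ifi27l2a was 4.7, 11.7, 17.6 and 5.5 TPM against 233 and 215 TPM, and Bst2, for tetherin, was 0, 17.4, 48.4 and 55.4 TPM against 177.5 and 387 TPM. Of 14 NF-kB and chemokine genes 5 were lower and 1 higher, with Ccl4 at 0.2, 0, 0 and 0 TPM against 338 and 47.8 TPM and Il1b the higher one at 0.3, 43.7, 6.5 and 20.2 TPM, listed at 0 in both Pf4-low cells. Of 19 ribosome biogenesis genes 5 were lower and 1 higher, with Myc at 0, 0, 0 and 1.9 TPM against 12.2 and 194.5 TPM. Nuclear respiratory chain genes had 0 of 18 called, and of 14 housekeeping genes 2 were called in each direction.

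Set against KO NMK cells, the Pf4-low cells lay inside the range for most genes. Of 11902 genes tested, 216 (1.81%) were higher in both Pf4-low cells than in every KO NMK cell and 83 (0.697%) were lower, around a median difference of 0.22. For the Pf4-high cells against the same KO NMK cells the counts were 266 (2.21%) and 113 (0.94%) of 12021 genes. These counts come from sets of 2 and 4 cells, the smaller of which clears a range more easily, and they share the KO NMK cells. Of the 892 genes higher in Pf4-high cells, both Pf4-low cells lay inside the KO NMK range for 814 (91.3%), against 81.5% of all genes tested. Of the 1333 lower genes, both lay inside it for 952 (71.4%) and above it for 144 (10.8%), against 1.96% of all genes tested. The choice of these genes by low or high Pf4-low values fixes part of that, so the shares are descriptions. Over 12745 genes, KO MK 2 correlated at 0.65 to 0.77 with KO NMK cells, at 0.59 to 0.77 with Pf4-high cells and at 0.79 with B1-4. B1-4 correlated at 0.62 to 0.75 with KO NMK and at 0.55 to 0.76 with Pf4-high cells. The ranges against both sets overlapped for both cells, and the points share the same libraries. The KO NMK comparison depends on which NMK libraries enter. With no housekeeping minimum the Pf4-low count was 207 higher and 7 lower, and with all 16 it was 202 and 2. The libraries so added had housekeeping scores of 1.24 to 4.79 and 3011 to 7438 genes above 0. A gene at 0 in any KO NMK cell cannot be called lower, so the fall in lower counts says little of the Pf4-low cells. Median-ratio scaling moved the share of higher calls from 72.2% to 82.5% and the median difference from 0.22 to 0.38.

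No platelet list had more than 1 member called higher in Pf4-low than in KO NMK cells, where 1.81% of all 11902 genes were. At that share lists of this size would hold few calls or none, so these counts say little of their members. Those were Fcer1g among the receptors and Alox5 among the enzymes, and 0 of 13 cargo, 0 of 21 cytoskeletal and 0 of 25 transcription factor genes were called. The receptor score was 2.93 and 2.76 in the Pf4-low cells and 1.67 to 3.28 in KO NMK cells, against 7.03, 6.62, 7.37 and 6.43 in Pf4-high cells. The granule biogenesis score, at 3.19 and 3.64, was above the KO NMK range of 1.97 to 3.17 in both Pf4-low cells. So was B1-4 alone for signalling genes, at 5.25 against a KO NMK maximum of 4.81. The cargo score was 2.52 in KO MK 2, just above the KO NMK maximum of 2.50, and 2.47 in B1-4, just below it.

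Few of the 216 genes that stood above every KO NMK cell in both Pf4-low cells belong to any of the lists. Of 13 granulocyte-monocyte genes 3 were called, of 16 p53 targets 3, and of 20 interferon genes 3. Cdkn1a exceeded the KO NMK maximum of 423.5 TPM in both cells, and Trp53inp1 was 31.9 and 60.3 TPM against 0 to 29.9 TPM. Fas, for the death receptor, was 14.6 and 0.7 TPM and listed at 0 in all 12 KO NMK cells. Rsad2, for viperin, was 19.5 and 72.1 TPM against at most 0.2 TPM, and Ifi27l2a was above the KO NMK maximum of 39.1 TPM in both. Cd7, of lymphoid cells, was 14.9 and 27.9 TPM against at most 0.2 TPM.

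By size of difference the leading genes above KO NMK cells were Hist1h2bc, Tyrobp, Zfp54, Smim6, Rnase6, Fcgr3, Pcbd1, Cst7, Cyp11a1, Tcp11l2, Rdh12 and AI429214. Hist1h2bc, a histone gene of the kind with near-identical copies and so uncertain, was 679.8 and 237 TPM against 0 to 33 TPM. Its Pf4-high values of 1355, 1253, 115 and 79.2 TPM overlapped those of the Pf4-low cells. Cst7, for cystatin F of myeloid and cytotoxic cells, was 80.1 and 40.5 TPM against at most 0.3 TPM in KO NMK and 0, 275, 109 and 21.2 TPM in Pf4-high cells. Rnase6 was 127 and 75.8 TPM in the Pf4-low cells, 0 to 67.5 TPM in KO NMK and 0 in all Pf4-high cells. Cyp11a1, for the first enzyme of steroid synthesis, was 57.7 and 51.2 TPM against at most 0.1 TPM. Hist1h2bc was thus present in all 4 Pf4-high cells and Cst7 in 3, while Rnase6 was in none and Cyp11a1 in KO MK 1 alone.

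Below every KO NMK cell were several cell cycle and histone genes. The lower side nearly vanished once NMK libraries with few genes above 0 were added, since a gene at 0 there cannot be called lower. Mki67, the proliferation marker, was 1.5 and 2.3 TPM against 7.8 to 57.1 TPM (median 35.2). Top2a, for topoisomerase II, was 15.6 and 34 TPM against 56.2 to 181 TPM (median 118), and Ccna2, for cyclin A2, was 32.5 and 69.4 TPM against 123.5 to 376 TPM (median 210.2). Of 29 replication genes 3 were lower, Mcm5, Tyms and Uhrf1, and Tyms, for thymidylate synthase, was 9.7 and 8 TPM against 17.5 to 91.1 TPM. Of 27 mitosis genes 3 were lower, where 0.697% of all genes tested were, while 13 of the 27 differences were above 0. Ccnb1 lay inside the KO NMK range of 0 to 1317 TPM in both cells, but with 0 in that range it could not be called lower. The named genes with the largest deficits were Nrm, Hist1h2ae, Hnrnpa0, Ppid, Cenpi, Hist1h2ab, Aldh18a1, Mki67, Capns1, Hist1h2ak, Hist1h2ac and Hist1h2ai. Nrm, for the nuclear membrane protein nurim, was 12.2 and 0 TPM against 60 to 682 TPM, and the 5 histone genes are uncertain because of near-identical copies. Atf4, the factor of the amino acid response, was 51.5 and 13.3 TPM against 52.8 to 201 TPM.

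Set against the same KO NMK cells, the Pf4-high cells were higher for 16 of 25 receptor genes and 8 of 18 cargo genes. Pf4, which chose the set, is among these cargo genes. Of the 12 genes with the largest excess, 2 are not described above. Slpi, a secreted protease inhibitor, was 419, 1148, 2847 and 6.2 TPM, at most 0.6 TPM in KO NMK cells and 29 and 0 TPM in Pf4-low cells, so B1-3 lay below KO MK 2. Lilrb4a, an inhibitory immune receptor, was 633, 414, 584 and 316 TPM against 9.4 and 7 TPM in Pf4-low cells. Lower than every KO NMK cell were Ly6a, Adgrl4, Igfbp4, Selplg, Phgdh, Napsa, Lcp1, Hmgn1, Tmem176a, Ly6e, Glipr1 and Kcnn4. Igfbp4, a growth factor binding protein, was 0.3, 0, 0.1 and 0.3 TPM in Pf4-high, 112 and 115 TPM in Pf4-low and 3.1 to 353 TPM in KO NMK cells. Phgdh, for the first enzyme of serine synthesis, was 0, 2.8, 4.9 and 9.3 TPM, 105.5 and 308 TPM and 69.4 to 492 TPM in the same order. Hmgn1, a nucleosome-binding protein, was 0, 44.1, 62.4 and 63.3 TPM, 714 and 827.5 TPM and 458 to 1716 TPM. For each of these 3 genes both Pf4-low cells lay inside the KO NMK range.

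The Pf4-low cells differed from each other more than 3 of the Pf4-high cells did. Their median absolute difference over 11761 genes was 1.02, against 0.56 to 0.63 among KO MK 1A, 1B and B1-3 and 1.31 to 1.68 between KO MK 1 and those. They were 2 or more log2 units apart for 3136 genes (26.7%), with 2171 of these higher in B1-4 and 965 higher in KO MK 2. KO MK 2 had the platelet traces of the pair, with Pf4, Ppbp, Gata1, Gp5 and Treml1 all above B1-4. The largest excesses in KO MK 2 were for Hbb-bt, Hbb-bs, Gchfr, Zswim7, Tmem126b, Eci1, Prelid2, Mrpl47, Cutc and Bex6. Gchfr, a regulator of tetrahydrobiopterin synthesis, was 242 and 0 TPM and reached 1174, 263, 319.8 and 181.5 TPM in the Pf4-high cells. The largest excesses in B1-4 were for Mgst1, Pcp4l1, Tmem71, Rab19, Snhg1, Ifngr2, Bhlhe40, Zfp3, Tmem243 and Sccpdh. Mgst1, for a microsomal glutathione transferase, was 0 and 307 TPM, with 0 to 79.7 TPM in KO NMK cells, and Ifngr2, for an interferon gamma receptor chain, was 0.1 and 147 TPM. With 1 library each, differences between these cells cannot be told apart from differences between libraries.

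The library titles carry the prefix B1 or none, and each holds cells of both sets. Among cells without the prefix, KO MK 1, 1A and 1B against KO MK 2, the differences were 7.03 for Pf4, 8.03 for Ppbp, and 5.05 for Itga2b. Between B1-3 and B1-4 they were 7.69, 10.53 and 8.18. On the other side, Myb differed by -6.01 and -5.04 and Cdkn1a by -3.11 and -2.10. Since the cells of the sets do not overlap for these 5 genes, their direction within a prefix is fixed, and only the sizes are informative. Among genes that overlapped, Ccnb1 differed by -3.18 without the prefix and 2.00 with it, and Top2a by -2.99 and 0.24.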

How the data were processed

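The authors deposited expression as TPM per gene for 46 single cells of 90 labelled samples, and 44 were not analysed here. Per the submitters' processing notes, featureCounts 1.6.2, STAR 2.6.1e, FastQC 0.11.7 and cutadapt 1.9.1 were used, with mm10 as the build. Which annotation, strand setting and TPM step they used is not stated here. TPM keeps no depth, so the depth is unknown. One column matched no sample and was not used.

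Values were compared as log2(TPM + 1) for genes with a mean of at least 1 TPM. A gene was called where the difference was 1 or more and no cells overlapped. Named genes were the 12 largest called differences each way among genes of at least 10 TPM with the same sign within both title prefixes, besides list members. Predicted genes, pseudogenes, small RNAs and mitochondrial or ribosomal protein genes were not named. For the pair of Pf4-low cells they were the 10 largest each way among genes reaching 100 TPM. The members and the 26 gene lists were chosen with earlier results of these data known. Positions come from GENCODE M21 (GRCm38), matched for 26762 of 35869 symbols, and promoters from RefSeq. Antisense and overlapping genes could not be separated. Alternatives covered pseudocounts, filters, scalings, thresholds, libraries and each cell left out. Scripts used matplotlib 3.10.9, scipy 1.17.1, pandas 2.3.3, numpy 2.4.6 and Python 3.11.15, and were tested on simulated data.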

Additional observations from a re-analysis of the deposited data

Results flagged for a closer look

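Among the 4 Pf4-high cells, 48 sets of values were checked for a cell far from the other 3, and 4 had one, where chance gives about 1 in 20. The mean log2(TPM + 1) of signalling and eicosanoid genes was 7.44 in KO MK 1B, above 6.89 to 6.93 in the others. KO MK 1 stood low for granule biogenesis genes at 3.60 and for mitochondrially encoded genes at 10.1. KO MK 1 also held the complement gene Cfp at 4.995 on the log2 scale, where the other 3 cells were at or near 0.

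Pf4 was also present in the 3 knockout MK cells left out for 50% or more mitochondrial TPM. It was 1601.8 TPM in B1-1b, 3625.1 TPM in B1-1 and 2705.4 TPM in B1-1a, all above the 587 TPM of the highest KO NMK cell compared. Mitochondrial genes held 94.8, 71.5 and 74.8% of their TPM in that order.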

How the results depend on the processing

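With each set 1 sample, no alternative carries a test. Over the genes with the largest differences in each comparison, 795 values moved by less than the spread and 309 by more. The spread is the SD of log2(TPM + 1) in Pf4-high cells, or in KO NMK cells for Pf4-low against KO NMK. The 795 include settings that change only which genes are tested or called, where a value cannot move. None changed sign, but these genes were chosen because no cells overlapped and the sign was the same within both prefixes. That choice fixes the sign for any pseudocount and any cells left out, so the lack of reversals says little. The mean log2 difference between the sets was 4.16 for cargo (with Pf4, which chose the sets), 4.02 for receptors, 2.13 for signalling and 2.01 for cytoskeletal genes. With a pseudocount of 0.1 these were 5.41, 5.19, 2.43 and 2.47, and with 10 they were 2.82, 2.64, 1.58 and 1.41. A pseudocount of 10 gave 487 genes higher and 727 lower in Pf4-high than in Pf4-low cells and 112 higher in Pf4-low than in KO NMK cells. A minimum of 10 TPM gave 588 higher in Pf4-high and 130 higher in Pf4-low than in KO NMK cells. A difference of 2 or more gave 484 and 800, and 40 lower in Pf4-low than in KO NMK cells. Cells without a prefix gave 1672 higher and 2795 lower, a signalling difference of 2.52, and against KO NMK cells 1042 and 377 for Pf4-low and 484 and 340 for Pf4-high. Cells with the prefix B1 gave 3705 and 2645, differences of 1.64 for signalling and 1.59 for cytoskeleton, and against KO NMK cells 2133 and 882 for Pf4-low and 2337 and 595 for Pf4-high. The authors' table without outliers gave 2008 higher in Pf4-high than in Pf4-low and 586 higher than in KO NMK cells. With KO NMK cells of any housekeeping score, 7 genes were lower in Pf4-low and 5 in Pf4-high cells, and with all 16 KO NMK cells 2 and 0. The libraries so added had 3011 to 7438 genes above 0, and a gene at 0 in any KO NMK cell cannot be called lower. The rule itself therefore cuts these counts. The DNA replication list, -0.73 in Pf4-low minus KO NMK cells, reversed to 0.00852 and 0.49 with those sets, which differ only by the added libraries. The cause of the other shifts was not tested.

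Leaving out each cell in turn gave 966 to 2008 higher and 1298 to 3593 lower genes between the sets (1668 and 2231 without B1-4), 736 to 1133 and 185 to 293 for Pf4-low against KO NMK, and 289 to 543 and 121 to 207 for Pf4-high against KO NMK cells. The signalling difference was 1.79 to 2.47. The median absolute difference between the 2 Pf4-low cells was 1.02.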

Other observations

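Set beside the 6 wild-type MK cells under the same mitochondrial and housekeeping thresholds, the Pf4-high cells had overlapping Pf4 but more of several other platelet transcripts. Pf4 was 12513 to 19619 TPM in wild-type MK cells and 43254, 18922, 26885 and 13752 TPM in Pf4-high cells. Ppbp was 152 to 882 TPM in wild-type MK cells, below every Pf4-high cell. Thbs1 was 0.4 to 9.3 TPM, Clec1b 8 to 30.7 TPM and Gata1 11.2 to 41 TPM in wild-type MK cells, against Pf4-high minima of 234, 110.7 and 138.5 TPM. Ly6a, at most 1.1 TPM, and Tyrobp, at most 1.7 TPM, were low in wild-type MK as in Pf4-high cells, and both Pf4-low cells were above those levels. KO MK 2 correlated at 0.78 to 0.83 and B1-4 at 0.75 to 0.76 with wild-type MK cells over 12745 genes. For KO MK 2 these were all above its highest values with KO NMK and with Pf4-high cells, both 0.77. For B1-4 they overlapped its values with KO NMK cells, up to 0.75, and with Pf4-high cells, up to 0.76. KO MK 1A, 1B and B1-3 correlated at 0.84 to 0.93 with wild-type MK cells, and KO MK 1 at 0.61 to 0.64. The reason for these differences was not tested. Genotype and library cannot be told apart here, as each group is 1 sample.

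Glucose metabolism genes differed in places. Of 15 glycolysis genes, 4 were lower and 1 higher in Pf4-high than in Pf4-low cells, where 11.3% and 7.58% of all genes tested were. Without KO MK 1 the counts were 2 and 2. Slc2a1, for the glucose transporter GLUT1, was 0.1, 8.5, 5.2 and 10.8 TPM against 11.3 and 13.4 TPM, while Slc2a3, for the transporter GLUT3 of platelets, was 105, 29.2, 83.8 and 37.2 TPM against 5.4 and 2.1 TPM. Mitochondrially encoded genes were called lower for 2 of 13, where 11.3% of all genes tested were, and for 0 of 13 without KO MK 1.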
